A study of Mus musculus with 8 samples.

Results

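Parthenogenetic stem cells (PSC) were set against embryonic stem cells (ESC), both undifferentiated, on mouse expression arrays of total RNA. The comparison took 6 of the 8 arrays, the 3 labelled PSC and the 3 labelled ESC, and all 18194 genes for which the arrays carry a probe set annotated to that gene alone. The PSC are labelled as strain C57BL/6: oocytes of superovulated mice were stimulated with strontium chloride and left to form blastocysts, from which the cells were taken at day 6. The ESC are of the line R1, kept on feeder cells (mouse embryonic fibroblasts, MEF) with murine leukemia inhibitory factor (LIF). The labels give no strain for them, and no feeder or LIF for the PSC. The other 2 arrays hold embryoid bodies, aggregates of differentiating cells, made from PSC of the same labelled strain and cultured for 15 days; they entered only the estimate of the spread. Origin of the genome and cell line differ together between PSC and ESC. The Y chromosome differs with them, as the Y-linked genes below show. Strain and feeders may differ too, and the parts of all these cannot be told apart. Whether the 3 arrays of a group stand for independent cultures is not in the labels. The p-values therefore reflect the spread among these arrays alone, which may be technical.

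A parthenogenetic embryo arises from an egg that is activated without sperm, so its cells carry maternal chromosomes only. Genes that are read from the paternal copy alone (imprinted genes) are then expected to be low, which is the best known difference from cells of a fertilised embryo. Stem cells from either kind of blastocyst are held in the undifferentiated state by the same network of transcription factors. Signals of LIF, bone morphogenetic protein (BMP) and fibroblast growth factor (FGF) act on this state. The account below concerns the rest of the transcriptome: genes of the lists of imprinted, Y-linked, X inactivation and pluripotency genes were left out when the largest differences were picked.

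Values are log2 expression values from robust multi-array averaging (RMA), and a difference is PSC minus ESC in log2 units with its standard error (SE) from limma. A gene was called at a Benjamini-Hochberg adjusted p below 0.05 over all genes. Where the mean of a compared group lay below 5.44, the median of all values and here the dim limit, the difference may understate the true change. No fold is given there. A value in parentheses after a gene name is this difference and, unless said otherwise, belongs to a called gene. Where averaging a gene's probe sets gave a much larger or smaller difference (by over 1.5 times), that value follows it.

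Of the 18194 genes, 3782 (20.8%) were called, 1651 higher (9.07%) and 2131 lower (11.7%) in PSC. The surplus of lower genes did not hold under other scalings: 2026 were higher and 1870 lower after a repeated quantile normalization, and 1974 and 1933 after cyclic loess. The median difference over all genes was 0.01 in the deposited values and 0.00 after either. Leaving out PSC 1 lowered the count of lower genes to 1330. Most called differences were small: 3232 (85.5%) lay under 2-fold, and the median size was 0.60. Among the 550 genes called at 2-fold or more (3.02% of all genes), 268 were higher and 282 lower. Of the 550, 94.9% lay outside the lists of imprinted, Y-linked, X inactivation and pluripotency genes. These 4 lists still held more than their share: 28 of the 550, against 151 of all 18194 genes. With no list left out, 11 of the 20 largest falls and 1 of the 20 largest rises belonged to them. The 95% interval of the difference stayed within 1 log2 unit either way for 16707 genes (91.8%). Calls rose with signal, from 3.06% of genes among the dimmest genes to 15.2%, 32.9% and 32.0% in 3 brighter groups of the same size. Of the 11892 genes above the dim limit in PSC or ESC, 29.7% were called, 12.6% higher and 17.1% lower; the gene lists below are read against this share too, a background added after seeing the data.

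**Figure D1:**
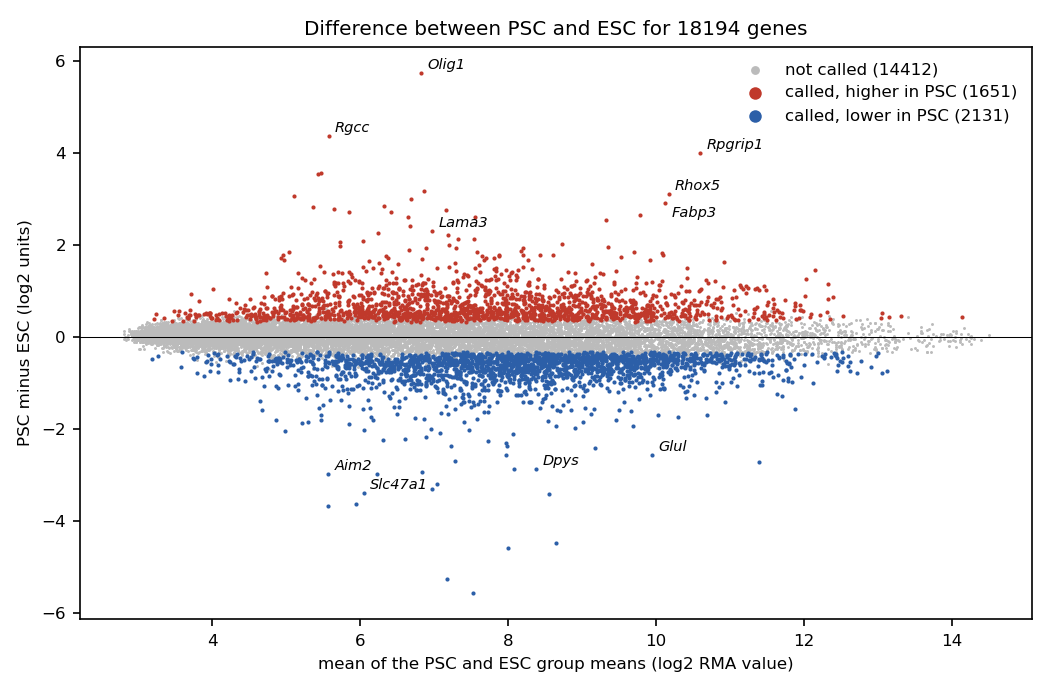
Difference between PSC and ESC (PSC minus ESC, log2 units) against the mean of both group means (log2 RMA value) for 18194 genes, 1 point a gene. The 1651 genes called higher are red, the 2131 called lower are blue, and most of both lie within 1 log2 unit of 0.

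Arrays of a group resembled each other more than those of the other group, with correlations over all genes of 0.994 to 0.995 among PSC, 0.991 to 0.995 among ESC and 0.978 to 0.986 between them. Markers of the labelled cell type were bright throughout: Pou5f1, Nanog, Sox2, Zfp42, Esrrb, Tdgf1, Fgf4 and Utf1 all lay between 9.91 and 12.95 in every PSC and ESC array. Their levels still differed: Zfp42 was called lower in PSC by a difference of -2.73 and Pou5f1 by -0.61, and 18 of 53 pluripotency genes were lower and 5 higher. Markers of fibroblasts, the feeder cells, were lower in PSC: 13 of the 25 measured were called lower and only Sparc higher (0.51, a call lost without any 1 of the PSC arrays, without ESC 2 and without ESC 3). Their mean level was 6.54 to 6.63 in the PSC arrays and 7.03 to 7.31 in the ESC arrays, and their summed linear signal 8880 to 9890 and 9760 to 11400. Lum, Fap, Fbln5 and Twist1 lay below the dim limit in both groups. In bulk RNA fewer cells of a type and less RNA per cell cannot be told apart. RNA quality, read as the signal of 3′ minus 5′ control probe sets, was -0.03 ± 0.04 (SD, n = 3) in PSC and 0.14 ± 0.05 (SD, n = 3) in ESC for Gapdh, and 1.27 ± 0.26 and 0.94 ± 0.22 for Actb (exact permutation p = 0.1 and 0.2, two-sided; 0.1 is the smallest p that 3 against 3 arrays allow).

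Among the largest differences outside those lists, the 20 genes that rose most did so by 2.40 to 5.73 and the 20 that fell most by 2.01 to 3.40; by the rule that picked them, PSC and ESC arrays did not overlap, as held for 36.5% of all genes. Since 3742 of the 3782 called genes had no overlap either, called genes named below are without overlap unless said otherwise, and this adds nothing to their call. Olig1, a transcription factor of the oligodendrocyte lineage, led the rises: its values were 9.76, 9.60 and 9.71 in the PSC arrays and 4.29, 3.74 and 3.83 in the ESC arrays. Its neighbour Olig2 lay at 7.01, 6.57 and 8.01 in the PSC arrays and 3.88, 3.64 and 3.48 in the ESC arrays, so that both genes were dim in every ESC array and well measured in every PSC array. Rpgrip1, which encodes a protein of the photoreceptor cilium, was bright in both groups, at 12.79, 12.64 and 12.36 in the PSC arrays and 8.55, 8.88 and 8.38 in the ESC arrays. It rose by 3.99 ± 0.15 (SE, adjusted p = 2.32e-09, or 1.14 as the mean of its 4 probe sets). Fabp3, the heart-type fatty acid-binding protein, was measured at 11.37, 11.65 and 11.72 in the PSC arrays and 8.79, 8.57 and 8.63 in the ESC arrays and rose by 2.92 ± 0.13 (SE, adjusted p = 9.57e-09, or 1.90 as the mean of its 2 probe sets). Rhox5, an X-linked homeobox gene, gave 11.67, 11.80 and 11.71 in the PSC arrays and 8.56, 8.75 and 8.55 in the ESC arrays, a rise of 3.11 ± 0.14 (SE, adjusted p = 8.88e-09), or 8.61-fold.

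Several further rises concerned metabolism and the lysosome. Aass, which starts the breakdown of lysine, lay at 8.09, 8.17 and 8.30 in the PSC arrays and 5.38, 5.33 and 4.88 in the ESC arrays. Apoc2, the cofactor of lipoprotein lipase, was at 7.85, 7.87 and 8.12 in the PSC arrays and 5.50, 5.56 and 4.98 in the ESC arrays. The ESC means of both lay below the dim limit, so the rises of 2.99 and 2.597 may understate the change. Galc, the lysosomal galactosylceramidase, rose by 2.79 ± 0.14 (SE, adjusted p = 2.13e-08, or 1.02 as the mean of its 3 probe sets) from a dim ESC level. C1qtnf12, a secreted protein of the C1q and TNF-related family, rose by 2.59 ± 0.17 (SE, adjusted p = 5.33e-07, or 0.92 as the mean of its 4 probe sets). Hesx1, a homeobox gene of the anterior forebrain and pituitary, had 7.69, 7.98 and 7.94 in the PSC arrays and 5.11, 5.54 and 5.75 in the ESC arrays and rose by 2.40 ± 0.16 (SE, adjusted p = 4.04e-07). The peptide transporter Slc15a2 rose by 2.85 ± 0.12 (SE, adjusted p = 8.88e-09, or 0.89 as the mean of its 3 probe sets) from a dim ESC level, but only 1 of its 3 probe sets moved that way. For Zbtb44 (2.54), too, only 1 of 3 probe sets rose, another was called lower, and their mean was not called (0.30). Also dim in ESC were Rgcc (4.36), a cell cycle regulator, the zinc finger gene Zfp386 (2.72), Spata5l1 (3.05) and its neighbour AA467197 (2.71). The other rises were AI662270, Gm21283, 2210409E12Rik and a probe set annotated to Mir1931, whose mature miRNA was not measured.

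The falls included enzymes and transporters. Glul, the glutamine synthetase, was bright in both groups at 8.47, 8.65 and 8.88 in the PSC arrays and 11.18, 11.38 and 11.15 in the ESC arrays. It fell by 2.57 ± 0.13 (SE, adjusted p = 2.31e-08), or 5.93-fold. Dpys, which breaks down pyrimidines, fell by 2.88 ± 0.19 (SE, adjusted p = 5.03e-07, or -0.99 as the mean of its 3 probe sets), and Car2, a cytosolic carbonic anhydrase, by 2.30 ± 0.14 (SE, adjusted p = 1.76e-07). Slc47a1, an efflux transporter for organic cations, lay at 4.30, 4.47 and 4.28 in the PSC arrays and 7.78, 7.67 and 7.79 in the ESC arrays, below the dim limit in every PSC array. Slc27a2, a very long-chain fatty acid transporter and acyl-CoA synthetase, fell by 2.01 ± 0.18 (SE, adjusted p = 5.67e-06).

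Other falls were in signalling, growth and DNA sensing. Myc, the growth-promoting transcription factor, gave 5.78, 6.47 and 5.85 in the PSC arrays and 8.77, 8.30 and 8.17 in the ESC arrays; it fell by 2.38 ± 0.19 (SE, adjusted p = 2.6e-06). Sulf1, which trims sulfate from heparan sulfate and so alters growth factor binding, was at 5.95, 6.11 and 5.78 in the PSC arrays and 8.68, 8.59 and 8.63 in the ESC arrays. It fell by 2.69 ± 0.12 (SE, adjusted p = 8.88e-09, or -1.77 as the mean of its 3 probe sets), or 6.44-fold. Aim2, the cytosolic DNA sensor of the inflammasome, was dim in PSC at 4.04, 4.03 and 4.18 in the PSC arrays and 7.27, 6.88 and 7.03 in the ESC arrays. Zfp423, a zinc finger partner of Smad proteins, lay at 5.99, 5.89 and 5.54 in the PSC arrays and 8.31, 7.95 and 7.70 in the ESC arrays, and Lncenc1, a noncoding RNA of embryonic stem cells, at 6.55, 6.63 and 6.75 in the PSC arrays and 9.21, 9.80 and 9.51 in the ESC arrays. The remaining falls were Kbtbd11 (-2.94, or -0.75 as the mean of its 4 probe sets), Fmr1nb (-2.57), Tmem64 (-2.41), the actin regulator Cap1 (-2.37), Pnma5 (-2.25), Xaf1 (-2.24, or -0.88 as the mean of 2 probe sets, of which the other was called higher), Stard3nl (-2.23), Aven (-2.11), Spink1 (-2.08) and the fibroblast marker Pdgfrb (-2.05, or -1.13 as the mean of its 2 probe sets).

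**Figure D2:**
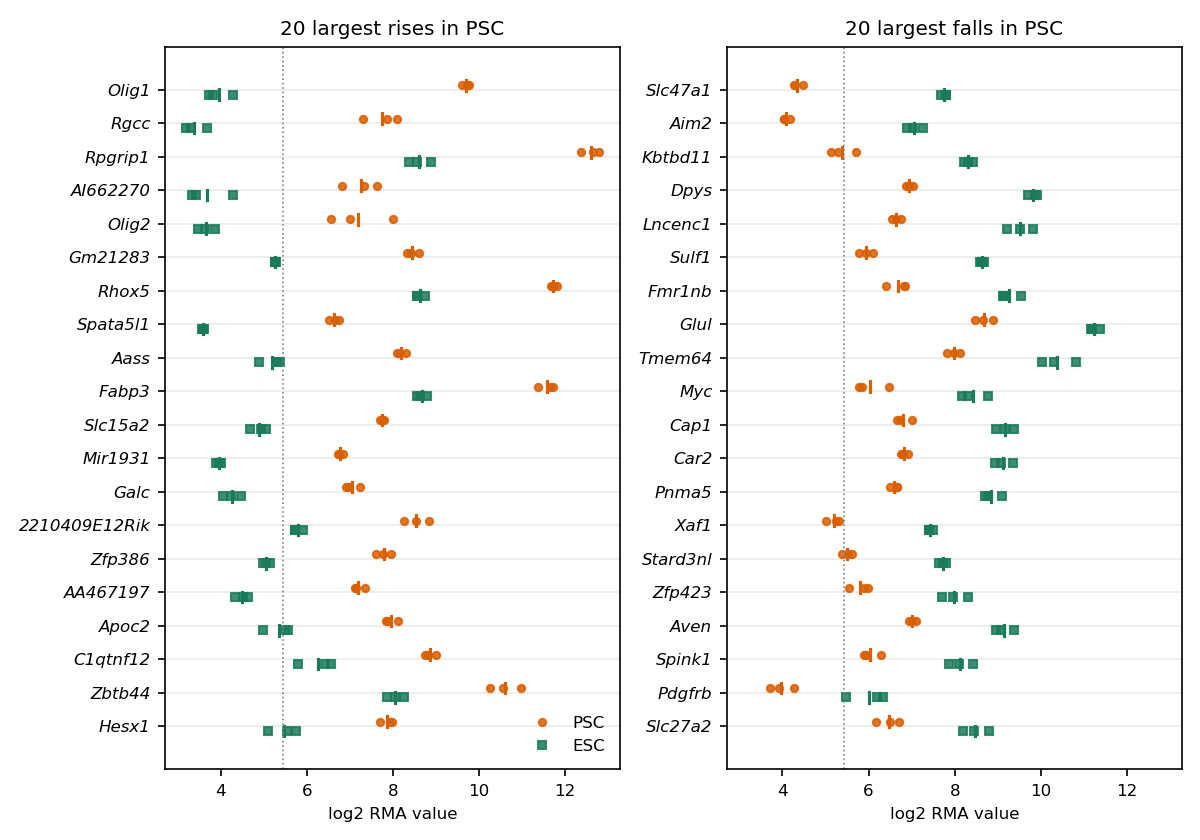
The log2 RMA value of each PSC array (circles) and ESC array (squares) for the 20 largest rises and the 20 largest falls in PSC, with vertical ticks at the group means and a dotted line at the dim limit of 5.44. No gene shows overlap between the groups, and 13 of the 20 rises start from an ESC mean below the dim limit.

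Germ cell and meiosis genes formed a group with more rises than falls. Of 56 measured, 15 were called higher, 6 lower and 35 not called (37.5% called, median difference 0.17); above the dim limit 13 of 33 were higher and 6 lower (57.6% called). Without PSC 1, 9 were higher. Genes of meiotic recombination and chromosome structure rose: Dmc1, the meiotic recombinase, was measured at 7.58, 7.88 and 8.09 in the PSC arrays and 5.93, 6.06 and 5.79 in the ESC arrays and rose by 1.92 ± 0.16 (SE, adjusted p = 4.4e-06, or 1.25 as the mean of its 2 probe sets). Smc1b, the meiotic cohesin subunit, had 7.31, 7.41 and 7.26 in the PSC arrays and 6.34, 6.48 and 6.39 in the ESC arrays, a rise of 0.93 ± 0.11 (SE, adjusted p = 6.5e-05). Meioc, a regulator of meiotic prophase, gave 7.54, 7.22 and 7.74 in the PSC arrays and 6.24, 6.10 and 6.11 in the ESC arrays and rose by 1.35 ± 0.20 (SE, adjusted p = 0.000322).

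Genes of the piRNA pathway, which silences transposons in germ cells, were among the rises too. Mael, which acts in this pathway, was at 8.66, 8.59 and 8.75 in the PSC arrays and 6.88, 6.81 and 7.15 in the ESC arrays. It rose by 1.72 ± 0.15 (SE, adjusted p = 5.75e-06), or 3.30-fold. Tdrkh, a tudor protein that helps to trim piRNAs, rose by 0.88 ± 0.12 (SE, adjusted p = 0.000164), and Piwil2 (0.65), Pld6 (0.70) and the cohesin subunit Rec8 (0.76) were called higher as well. Other genes of the same processes fell: the meiotic cohesin subunit Stag3 gave 7.79, 7.84 and 7.75 in the PSC arrays and 8.84, 8.71 and 8.76 in the ESC arrays, a fall of 0.98 ± 0.13 (SE, adjusted p = 0.000185). Sycp3, of the synaptonemal complex, fell by 0.97 ± 0.20 (SE, adjusted p = 0.00395) and the piRNA factor Tdrd12 by 0.65 ± 0.14 (SE, adjusted p = 0.00499). The largest fall of the list was that of another piRNA factor, Gtsf1 (-1.02, and -0.46 on its other probe set, also called). Sycp1 (0.71) was called higher although dim in both groups, and Dazl (0.31) and Hormad1 (0.30) were not called. Few oocyte and 2-cell genes were called: 3 of 35 measured were higher and none lower (8.57% called), with 22 of the 35 dim in both groups. The 3 were Padi6, a peptidylarginine deiminase of the oocyte lattice, dim in ESC (1.24), Ooep, of the maternal subcortical complex (0.68), and Nlrp4f (0.54, not called without PSC 1).

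The promoters of the 4 risen germ cell genes with the largest differences are shown because genes of this class often have CpG-rich promoters with E2F-type motifs, which germline repressors bind. The sequences are the 250 bases before the RefSeq start in GRCm38.p6, on the strand of the gene, and capitals mark the motif TCCCGC or its reverse complement GCGGGA. Dmc1 is on the minus strand at chr15:79605110-79605359, Mael on the minus strand at chr1:166238745-166238994, Meioc on the plus strand at chr11:102665335-102665584 and Smc1b on the minus strand at chr15:85131958-85132207.
Dmc1: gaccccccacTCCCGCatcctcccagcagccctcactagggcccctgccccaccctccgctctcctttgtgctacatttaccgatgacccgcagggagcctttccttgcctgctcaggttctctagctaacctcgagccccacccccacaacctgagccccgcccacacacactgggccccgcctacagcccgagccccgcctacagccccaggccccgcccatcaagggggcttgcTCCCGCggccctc
Mael: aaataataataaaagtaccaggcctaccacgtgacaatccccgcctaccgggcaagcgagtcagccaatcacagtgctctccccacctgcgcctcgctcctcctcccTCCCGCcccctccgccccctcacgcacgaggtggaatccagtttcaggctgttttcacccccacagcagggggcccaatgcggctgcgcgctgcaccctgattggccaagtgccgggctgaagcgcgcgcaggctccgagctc
Meioc: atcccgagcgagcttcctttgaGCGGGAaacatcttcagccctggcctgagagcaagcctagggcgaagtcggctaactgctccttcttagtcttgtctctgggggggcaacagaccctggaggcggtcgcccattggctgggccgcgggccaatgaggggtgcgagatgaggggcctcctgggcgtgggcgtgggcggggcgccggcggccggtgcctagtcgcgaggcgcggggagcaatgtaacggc
Smc1b: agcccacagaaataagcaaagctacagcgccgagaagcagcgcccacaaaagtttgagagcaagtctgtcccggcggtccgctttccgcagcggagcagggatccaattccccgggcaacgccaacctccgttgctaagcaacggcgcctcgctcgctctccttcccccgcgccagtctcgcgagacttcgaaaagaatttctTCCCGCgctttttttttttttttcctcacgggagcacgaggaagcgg
They hold 12, 18, 22 and 25 CpG dinucleotides in this order. Of the risen germ cell genes, 12 of 15 had a promoter in the table, and 6 of these 12 held the motif (50.0%). It stood in 1 of 6 promoters of the fallen ones (16.7%), in 9 of 31 of those not called (29.0%) and in 3618 of 14453 of all measured genes (25.0%). A match of these letters is a description and not a measured binding site.

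Lysosome genes moved mostly upward. Of 46 lysosome and autophagy genes, 16 were called higher and 4 lower (43.5% called, and 46.5% above the dim limit, median 0.27). The lower count was 2 without PSC 2, without ESC 1, or without probe sets whose identifiers end in _x_at or _s_at. Cd68, a glycoprotein of late endosomes and lysosomes, was measured at 8.60, 8.98 and 9.01 in the PSC arrays and 7.39, 7.40 and 7.42 in the ESC arrays, a rise of 1.46 ± 0.12 (SE, adjusted p = 4.72e-06). Hexa, a subunit of the ganglioside-degrading hexosaminidase, had 11.34, 11.53 and 11.35 in the PSC arrays and 10.60, 9.68 and 10.33 in the ESC arrays and rose by 1.20 ± 0.19 (SE, adjusted p = 0.000543). Npc2, which moves cholesterol out of lysosomes, was at 12.96, 13.03 and 12.69 in the PSC arrays and 11.62, 11.88 and 11.74 in the ESC arrays. It rose by 1.14 ± 0.12 (SE, adjusted p = 3.64e-05, or 0.61 as the mean of its 4 probe sets), and the lysosomal membrane protein Laptm4b by 1.06 ± 0.14 (SE, adjusted p = 0.000193, or 0.66 as the mean of its 3 probe sets, or 0.53 without _x_at and _s_at probe sets). The proteases Ctsd (0.57), Ctsa (0.75) and Ctsz (0.52), acid ceramidase Asah1 (0.81) and acid glucosidase Gaa (0.74) were called higher. The lower members were autophagy genes and a regulator: Atg16l1 fell by 0.67 ± 0.14 (SE, adjusted p = 0.00405, or -0.36 as the mean of its 2 probe sets), and Map1lc3a (-0.78, or -0.47 without _x_at and _s_at probe sets), Becn1 (-0.71, or -0.24 as the mean of its 5 probe sets) and Tfeb (-0.51), the transcription factor of lysosome genes, lost their calls in 1 or more alternatives.

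Cholesterol synthesis genes also leaned upward, by small amounts. Of 20 measured, 6 were higher and 1 lower (35.0% called, median 0.17), and 3 were higher without PSC 2. Ebp, a sterol isomerase, was measured at 9.22, 9.34 and 9.32 in the PSC arrays and 8.88, 8.86 and 8.79 in the ESC arrays and rose by 0.45 ± 0.11 (SE, adjusted p = 0.00851). Stard4, a carrier of cholesterol in the cytosol, rose by 0.81 ± 0.15 (SE, adjusted p = 0.00237, or 0.44 as the mean of its 3 probe sets). No gene of the list reached 2-fold.

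Genes induced by low oxygen and genes of glycolysis rose more often than they fell: 14 of 48 were higher and 3 lower (35.4% called, and 37.8% above the dim limit, median 0.15). Eno2, the neuronal enolase, was dim in ESC: it lay at 6.76, 6.72 and 6.64 in the PSC arrays and 5.06, 4.48 and 4.67 in the ESC arrays. Egln3, an oxygen-sensing prolyl hydroxylase, had 10.43, 10.41 and 10.11 in the PSC arrays and 9.11, 9.08 and 9.28 in the ESC arrays, a rise of 1.16 ± 0.12 (SE, adjusted p = 2.63e-05), or 2.24-fold. Ddit4, which inhibits mTOR complex signalling, was at 11.81, 11.89 and 11.61 in the PSC arrays and 10.73, 10.26 and 11.00 in the ESC arrays and rose by 1.11 ± 0.17 (SE, adjusted p = 0.00052). Bnip3, a mitophagy receptor, rose by 0.89 ± 0.14 (SE, adjusted p = 0.00055) and the peptide hormone gene Adm by 0.88 ± 0.15 (SE, adjusted p = 0.000856). Vegfa (0.61), Aldoc (0.80) and Pfkm (0.60) were called higher too. The 3 lower genes were Slc16a3 (-0.83, with overlapping arrays), Eno3 (-0.53) and Epas1 (-0.33); none of these was called lower without PSC 1, PSC 2 or ESC 1, and 1 was without PSC 3 or ESC 3 or after cyclic loess. Of 76 oxidative phosphorylation genes, 6 were higher and 6 lower (15.8% called, against 20.8% of all genes). Leaving out PSC 1 gave 3 lower, and the mean of probe sets, or no _x_at and _s_at probe sets, gave 10, while array weights gave 10 higher. Ndufs5, a subunit of respiratory complex I, rose by 1.17 ± 0.13 (SE, adjusted p = 3.64e-05), whereas Ndufs1 of the same complex fell by 0.51 ± 0.11 (SE, adjusted p = 0.00481).

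Mitochondrial ribosomal protein genes leaned downward, by small amounts. Of 76 measured, 20 were lower and 2 higher (28.9% called, median -0.21), none by 2-fold, and 10 were lower without PSC 1. The share called was near the 29.7% of all genes above the dim limit, but 26.3% were lower, against 17.1% of those genes. Mrpl12, of the large subunit, was measured at 9.81, 9.995 and 10.22 in the PSC arrays and 10.96, 10.82 and 10.78 in the ESC arrays, a fall of 0.85 ± 0.13 (SE, adjusted p = 0.00037). Mrpl37 fell by 0.85 ± 0.16 (SE, adjusted p = 0.00235) and Mrps5, of the small subunit, by 0.79 ± 0.13 (SE, adjusted p = 0.000947) with all 5 probe sets called. Of the cytosolic ribosomal protein genes only 3 of 49 were called (6.12%), and for 38 of the 49 the 95% interval lay within 0.5 log2 units either way. The called genes were Rps25 (0.88), Rpl39l (-1.35), a paralog of Rpl39, and Rps27l (-0.44, not called without PSC 1, PSC 2 or ESC 1, among other settings). Members of such families can share probe sequence with near-identical copies, so single values are uncertain. Proteasome genes were 2 higher and 7 lower of 39 (23.1%; 12 lower with array weights), among them Psmb5 (-0.63) and Psmc4 (-0.89).

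**Figure D3:**
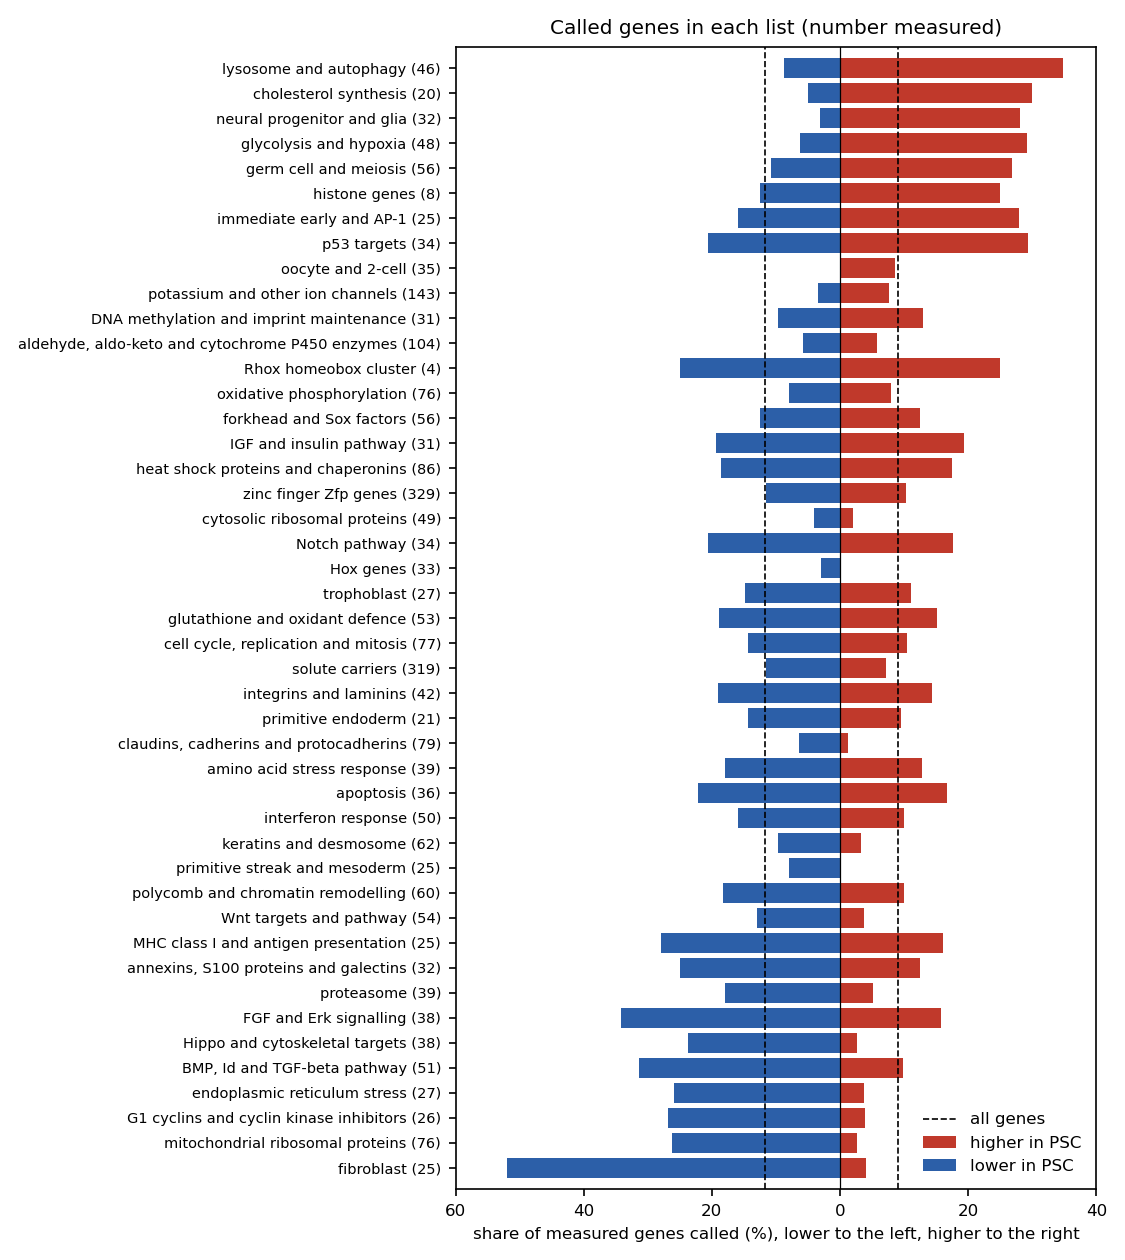
Share of measured genes called higher (red, right) and lower (blue, left) in PSC for the 45 gene lists besides those left out, with the number measured in parentheses. Dashed lines mark the shares over all genes, 9.07% higher and 11.7% lower; lysosome and cholesterol genes reach furthest above the share of higher genes, and fibroblast markers furthest beyond that of lower genes.

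BMP, Id and TGF-beta pathway genes fell more often than they rose. Of 51 measured, 16 were lower and 5 higher (41.2% called, and 50.0% above the dim limit, median -0.10); the 5 higher became 3 with the mean of probe sets or without ESC 1 or ESC 2, 2 without PSC 1 or ESC 3 and 1 without PSC 2. Among ligands, Bmp4 was measured at 7.54, 7.96 and 8.11 in the PSC arrays and 9.73, 9.37 and 9.30 in the ESC arrays. It fell by 1.60 ± 0.17 (SE, adjusted p = 2.95e-05), or 3.02-fold. Inhbb, the activin B subunit, fell by 1.09 ± 0.22 (SE, adjusted p = 0.00297, or -0.61 as the mean of its 2 probe sets). The target Id1, an inhibitor of differentiation that BMP signals induce, had 5.598, 5.98 and 6.32 in the PSC arrays and 8.27, 7.85 and 7.75 in the ESC arrays, a fall of 1.99 ± 0.18 (SE, adjusted p = 6.76e-06). Id2, a related gene, did not share this: its brightest probe set rose by 0.59 and the mean of its probe sets was not called (0.16). Dusp9, a phosphatase of MAP kinases that BMP4 induces in embryonic stem cells, lay at 6.68, 6.997 and 7.04 in the PSC arrays and 8.98, 8.32 and 8.32 in the ESC arrays and fell by 1.63 ± 0.20 (SE, adjusted p = 7.61e-05). Ltbp4, which binds latent TGF-beta, fell by 1.08 ± 0.21 (SE, adjusted p = 0.00246). Receptors and Smads were lower as well, with Tgfbr1 at -1.01, Tgfbr2 at -0.75, Acvr2b at -0.66, Acvr1 at -0.61, Smad1 at -0.48 and Smad4 at -0.43. ESC 1 was the highest ESC array for Bmp4, Id1, Dusp9, Ltbp4 and Inhbb, and it also had the highest mean of fibroblast markers (7.31). It was likewise the highest ESC array for the stem cell markers Pou5f1, Nanog, Zfp42, Esrrb and Utf1, though not for Sox2, Tdgf1 and Fgf4. The part of feeder RNA in these falls was not tested.

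FGF and Erk signalling genes showed 13 falls and 6 rises among 38 (50.0% called, median -0.30). Fgf17, a ligand, was measured at 6.48, 6.70 and 6.93 in the PSC arrays and 8.41, 7.87 and 8.07 in the ESC arrays and fell by 1.41 ± 0.18 (SE, adjusted p = 0.000122). Etv5 and Etv4, transcription factors induced by Erk, fell by 1.80 ± 0.21 (SE, adjusted p = 6.8e-05) and by 1.34 ± 0.18 (SE, adjusted p = 0.000196). The feedback inhibitor Spry1 fell by 0.91 ± 0.16 (SE, adjusted p = 0.00114). The Erk phosphatase Dusp4 went the other way, with a rise of 0.89 ± 0.14 (SE, adjusted p = 0.000632). Immediate early genes, which respond to such signals within minutes, were also split: 7 of 25 were higher and 4 lower (44.0% called). Fos was at 12.08, 12.01 and 11.59 in the PSC arrays and 10.96, 10.81 and 10.75 in the ESC arrays and rose by 1.05 ± 0.14 (SE, adjusted p = 0.000145), Jun rose by 0.77 ± 0.18 (SE, adjusted p = 0.00758) and Ier3 by 1.10 ± 0.14 (SE, adjusted p = 0.000114). Zfp36, which destabilises mRNA, had 6.45, 6.35 and 6.58 in the PSC arrays and 7.80, 7.55 and 7.63 in the ESC arrays and fell by 1.20 ± 0.12 (SE, adjusted p = 1.67e-05), and Junb, Ier2 and Nr4a1 fell by 0.83, 0.70 and 0.62.

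Notch pathway genes went both ways, 6 higher and 7 lower of 34 (38.2% called; 3 higher with the mean of probe sets). Jag2, a ligand, was measured at 7.92, 8.30 and 7.91 in the PSC arrays and 6.84, 6.54 and 6.85 in the ESC arrays and rose by 1.304 ± 0.14 (SE, adjusted p = 2.88e-05). Hes1, a target gene, gave 7.36, 7.20 and 7.38 in the PSC arrays and 8.52, 8.18 and 8.20 in the ESC arrays, a fall of 0.98 ± 0.13 (SE, adjusted p = 0.000128). The receptor gene Notch4 was called lower on 1 of its 3 probe sets (mean of the 3, -0.55), at 4.94, 5.13 and 5.24 in the PSC arrays and 7.25, 6.02 and 6.55 in the ESC arrays. In the IGF and insulin pathway 6 of 31 were higher and 6 lower (38.7% called); 3 were lower without PSC 1 or without PSC 2, and 10 with array weights. Htra1, a protease that cleaves IGF-binding proteins, rose by 0.97 ± 0.13 (SE, adjusted p = 0.000184) and Pik3ip1, an inhibitor of PI3 kinase, by 0.87 ± 0.13 (SE, adjusted p = 0.000465). Igf1r, the receptor, rose by 0.73 ± 0.13 (SE, adjusted p = 0.00114, or 0.41 as the mean of its 5 probe sets). The largest difference of the list was a fall, that of Pik3ca (-1.006), a catalytic subunit of PI3 kinase. It alone reached 2-fold, but none of its other probe sets was called. Of 54 Wnt genes, 2 were higher and 7 lower (16.7%), led by Notum, a secreted enzyme that inactivates Wnt ligands, which fell by 1.19 ± 0.13 (SE, adjusted p = 3.91e-05). Of 38 Hippo and cytoskeletal targets, 9 were lower and 1 higher (26.3%), but only 2 were lower without PSC 1 or ESC 1 and 5 without PSC 2 or PSC 3. The 1 higher was Ccn1, a target of the coactivator Yap1, which rose by 0.99 ± 0.13 (SE, adjusted p = 0.000193, or 1.72 as the mean of its 4 probe sets).

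Genes of the G1 phase of the cell cycle leaned downward: 7 of 26 were lower and 1 higher (30.8% called, against 29.7% of all genes above the dim limit, median -0.19; 12 lower with array weights). Ccnd2, a D-type cyclin, was measured at 7.19, 7.17 and 7.51 in the PSC arrays and 8.55, 8.41 and 8.48 in the ESC arrays and fell by 1.19 ± 0.14 (SE, adjusted p = 5.16e-05, or -0.74 as the mean of its 7 probe sets). Its kinase partners Cdk6 and Cdk4 fell by 0.91 ± 0.12 (SE, adjusted p = 0.000119) and by 0.61 ± 0.15 (SE, adjusted p = 0.00894). Ccng2, a cyclin linked to cell cycle exit, was the 1 higher: it lay at 9.98, 9.98 and 9.83 in the PSC arrays and 8.18, 8.41 and 8.46 in the ESC arrays and rose by 1.58 ± 0.12 (SE, adjusted p = 1.17e-06), or 2.99-fold. Replication and mitosis genes were called near the background, 8 higher and 11 lower of 77 (24.7%), none by 2-fold. The higher count was 13 after quantile normalization or loess, 4 with the mean of probe sets and 5 without _x_at and _s_at probe sets, and the lower count was 19 with array weights. Cenpf rose by 0.69 ± 0.11 (SE, adjusted p = 0.000589, or 0.44 as the mean of its 3 probe sets), while Birc5 and Gins4 fell by 0.79 ± 0.11 (SE, adjusted p = 0.000185) and by 0.87 ± 0.11 (SE, adjusted p = 0.00015).

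Targets of p53 were called often, but in both directions: 10 of 34 were higher and 7 lower (50.0% called, median 0.14). The lower count was 4 after quantile normalization, loess, or without PSC 2 or PSC 3, and 3 without PSC 1. Pmaip1, a BH3-only inducer of apoptosis, was measured at 8.71, 8.51 and 8.55 in the PSC arrays and 7.27, 7.14 and 6.88 in the ESC arrays and rose by 1.49 ± 0.13 (SE, adjusted p = 6.66e-06). Ephx1, an epoxide hydrolase, had 9.01, 9.15 and 8.94 in the PSC arrays and 7.95, 7.52 and 7.85 in the ESC arrays, a rise of 1.26 ± 0.13 (SE, adjusted p = 2.2e-05), and Trp53inp1 rose by 0.68 ± 0.13 (SE, adjusted p = 0.00223). Def6 fell by 1.07 ± 0.17 (SE, adjusted p = 0.000715) and Perp, a desmosome-associated protein, by 0.67 ± 0.11 (SE, adjusted p = 0.00108). Cdkn1a, the best known target, was not called on its brightest probe set (difference 0.17 with a 95% interval from -0.13 to 0.47), but the mean of its 2 probe sets was (0.54, limma adjusted p = 0.00883). Trp53 itself was not analysed here. Apoptosis genes were 6 higher and 8 lower of 36 (38.9%). Apaf1, of the apoptosome, rose by 0.89 ± 0.12 (SE, adjusted p = 0.000162) and Birc2, an inhibitor, by 0.67 ± 0.12 (SE, adjusted p = 0.00179), while Bak1, a pore-forming protein of the mitochondrion, fell by 0.86 ± 0.14 (SE, adjusted p = 0.000707, or -0.44 as the mean of its 2 probe sets). The lower count of this list was 2 without PSC 1 or ESC 3, 3 without PSC 2, 5 without PSC 3 or ESC 1, 4 or 5 after quantile normalization or loess and 13 with array weights.

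Glutathione and oxidant defence genes were called in 34.0% of 53 cases, 8 higher and 10 lower; 6 were lower without PSC 1, ESC 1 or ESC 3 and 5 without PSC 2. Among glutathione peroxidases, which reduce peroxides, Gpx2 was measured at 7.92, 8.09 and 8.25 in the PSC arrays and 9.99, 10.08 and 9.74 in the ESC arrays, a fall of 1.85 ± 0.15 (SE, adjusted p = 2.27e-06), or 3.61-fold. Gpx1 fell by 0.88 ± 0.13 (SE, adjusted p = 0.000338). Gstp1, a glutathione transferase, was bright at 11.00, 11.05 and 10.98 in the PSC arrays and 12.33, 12.21 and 12.23 in the ESC arrays and fell by 1.25 ± 0.10 (SE, adjusted p = 4.21e-06), and Glrx, a glutaredoxin, fell by 1.505 ± 0.14 (SE, adjusted p = 9.72e-06). Transferases of other classes rose, Gstt2 by 0.93 ± 0.13 (SE, adjusted p = 0.000202) and Gstm1 by 0.57 ± 0.13 (SE, adjusted p = 0.00593).

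**Figure D4:**
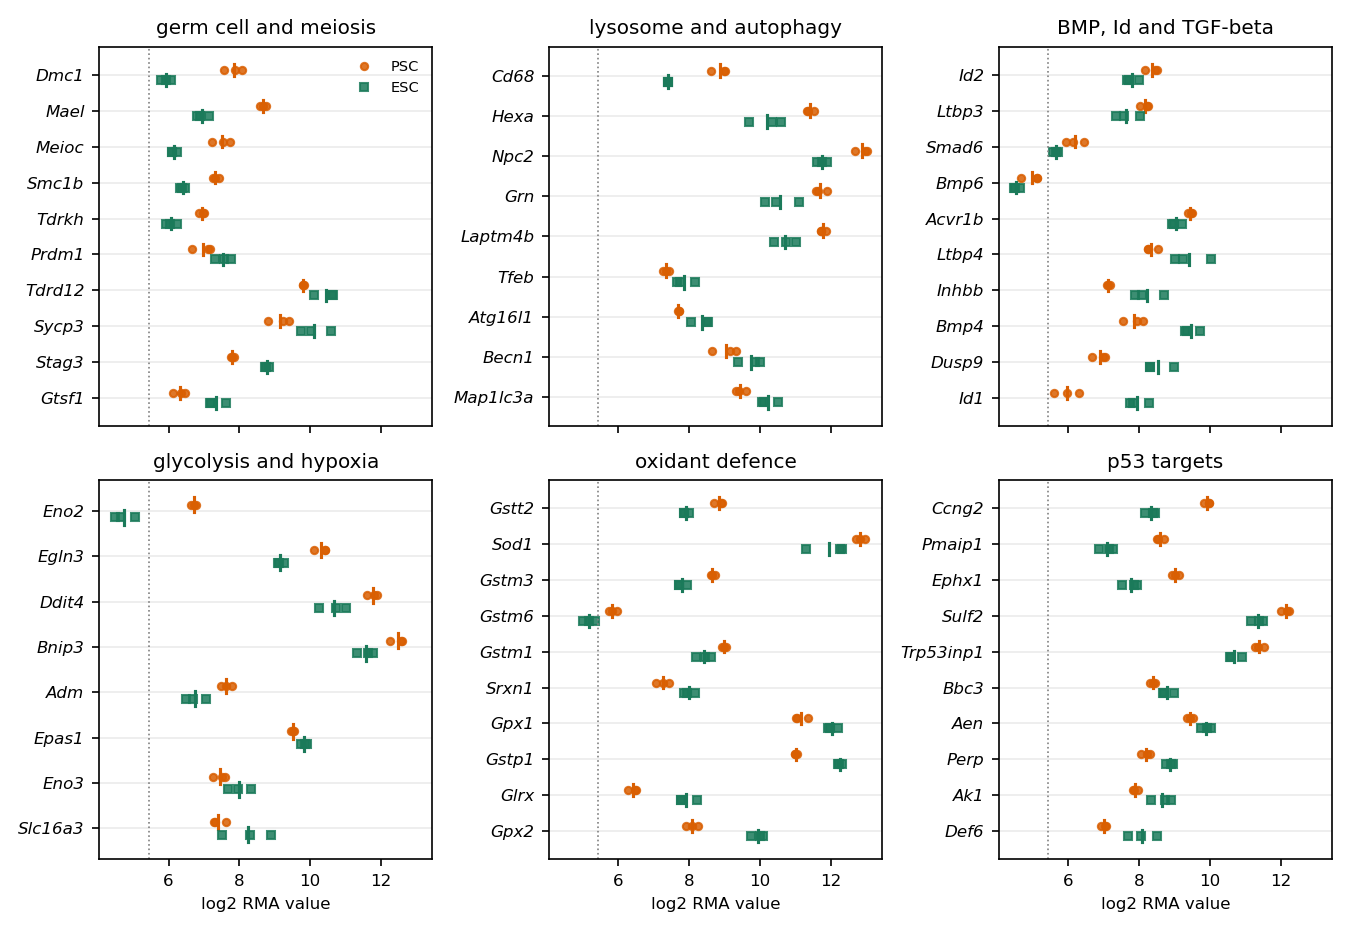
The log2 RMA value of each PSC array (circles) and ESC array (squares) for up to 5 called members in each direction of 6 gene lists, with ticks at group means and a dotted line at the dim limit of 5.44. Dmc1, Cd68, Eno2 and Ccng2 lie higher in PSC, and Id1, Gpx2 and Bmp4 lower; only Slc16a3 shows overlapping arrays.

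Stress response genes of the amino acid pathway were 5 higher and 7 lower of 39 (30.8%). Above the dim limit 32.4% were called, against 29.7% of all such genes. Without _x_at and _s_at probe sets 3 were higher, and with the mean of probe sets 11 were lower. Ddit3, a transcription factor of this response, was measured at 8.83, 8.87 and 8.56 in the PSC arrays and 7.41, 7.23 and 7.41 in the ESC arrays and rose by 1.40 ± 0.12 (SE, adjusted p = 4.72e-06). Nupr1, a chromatin-associated stress protein, rose by 1.16 ± 0.14 (SE, adjusted p = 7.28e-05). Cth, which makes cysteine, fell by 1.06 ± 0.12 (SE, adjusted p = 6.7e-05), and the amino acid transporter Slc7a5 by 0.82 ± 0.14 (SE, adjusted p = 0.00112). Of the endoplasmic reticulum stress genes 1 of 27 was higher and 7 lower (29.6%, against 29.7% of all genes above the dim limit). In 8 of the alternatives 2 to 4 were lower, with the fewest (2) without PSC 1. Heat shock and chaperone genes were 15 higher and 16 lower of 86 (36.0%); 8 were lower without PSC 1, 10 without PSC 2 and 9 without ESC 3. Hspb6, a small heat shock protein that was dim in PSC, fell by 1.56 ± 0.17 (SE, adjusted p = 3.91e-05) and its relative Hspb1 by 0.66 ± 0.14 (SE, adjusted p = 0.00412), whereas Hspa4l rose by 0.96 ± 0.12 (SE, adjusted p = 9.11e-05, or 0.57 as the mean of its 5 probe sets).

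Annexin, S100 and galectin genes were 8 lower and 4 higher of 32 (37.5%; 63.2% of those above the dim limit). S100a10, the partner of annexin A2, was measured at 9.18, 8.80 and 9.57 in the PSC arrays and 11.08, 10.76 and 10.80 in the ESC arrays and fell by 1.70 ± 0.17 (SE, adjusted p = 1.73e-05, or -1.10 as the mean of its 3 probe sets). The galectins Lgals3 and Lgals9 fell by 1.25 ± 0.13 (SE, adjusted p = 2.16e-05) and by 1.48 ± 0.22 (SE, adjusted p = 0.000363). S100a13 went up instead, at 8.24, 8.11 and 8.25 in the PSC arrays and 6.95, 7.17 and 7.09 in the ESC arrays, a rise of 1.13 ± 0.12 (SE, adjusted p = 3.45e-05). Fibroblasts make several of these proteins, and their marker mean was 6.54 to 6.63 in PSC and 7.03 to 7.31 in ESC; the part of feeder RNA was not tested. Integrin and laminin genes were 6 higher and 8 lower of 42 (33.3%), and 5 were lower without PSC 2 or with the mean of probe sets. The largest fall counted here was that of Itgb3bp (-1.08, called on 1 of its 5 probe sets). It entered the list by its symbol and encodes an integrin-binding protein, not an integrin or laminin. Lama3, the laminin alpha 3 chain of epithelial basement membranes, had 8.00, 8.20 and 8.19 in the PSC arrays and 6.00, 6.05 and 5.42 in the ESC arrays, a rise of 2.31 ± 0.16 (SE, adjusted p = 5.68e-07, or 1.17 as the mean of its 2 probe sets). The integrin genes Itga5 and Itga9 fell by 0.97 ± 0.19 (SE, adjusted p = 0.00285, or -0.38 as the mean of its 4 probe sets, or -0.56 without _x_at and _s_at probe sets) and by 0.88 ± 0.11 (SE, adjusted p = 0.000119, or -0.41 as the mean of its 3 probe sets).

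Among adhesion and junction genes calls were few. Of 79 claudin, cadherin and protocadherin genes 5 were lower and 1 higher (7.59%), with 58 dim in both groups; 3 were lower without PSC 1 or PSC 2, and 9 with array weights. Cdh11, a cadherin of mesenchymal cells, was measured at 4.71, 5.07 and 4.89 in the PSC arrays and 7.10, 6.72 and 6.57 in the ESC arrays, dim in every PSC array, and is itself typical of fibroblasts. Epcam, an epithelial adhesion protein that embryonic stem cells make, fell by 1.08 ± 0.12 (SE, adjusted p = 3.22e-05, or -0.67 as the mean of its 2 probe sets). Cdh1, the cadherin of embryonic stem cells, was not called (difference -0.29 with a 95% interval from -0.54 to -0.05 before adjustment). Keratin and desmosome genes were 2 higher and 6 lower of 62 (12.9%), with 32 dim in both groups. Dsp, the desmosomal plaque protein, fell by 1.51 ± 0.14 (SE, adjusted p = 7.92e-06, or -0.99 as the mean of its 3 probe sets) and Jup, plakoglobin, by 0.71 ± 0.15 (SE, adjusted p = 0.00531).

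Antigen presentation genes were 7 lower and 4 higher of 25 (44.0%). The higher count was 0 without PSC 2 and 2 without ESC 1 or ESC 3. The higher genes were H2-M3 (0.50), H2-Ke6 (0.45), Psmb9 (0.39) and Erap1 (0.40), the last dim in both groups. H2-Ke6 lies in the MHC region but encodes a dehydrogenase, so it does not stand for antigen presentation. B2m, the light chain of MHC class I, was measured at 7.59, 7.68 and 8.07 in the PSC arrays and 9.01, 8.84 and 8.39 in the ESC arrays and fell by 0.97 ± 0.17 (SE, adjusted p = 0.00126). The immunoproteasome subunit Psmb10 fell by 0.89 ± 0.11 (SE, adjusted p = 0.000132). H2-D1 fell by 1.15 on its brightest probe set, but 3 of its 9 probe sets were called higher and their mean was -0.10; class I genes are near-identical and differ between strains, so their values are uncertain. Interferon response genes were 5 higher and 8 lower of 50 (26.0%); 2 or 3 were higher without ESC 1 or any 1 of the PSC arrays, and 4 lower without PSC 1, PSC 2 or ESC 1. Ifitm3, a membrane protein that blocks virus entry, was bright at 11.10, 11.00 and 11.25 in the PSC arrays and 10.36, 10.04 and 9.87 in the ESC arrays and rose by 1.02 ± 0.13 (SE, adjusted p = 0.000157), and the GTPase Igtp by 0.86 ± 0.12 (SE, adjusted p = 0.000197). Among the falls were Xaf1, described above, Mov10, an RNA helicase, which fell by 0.93 ± 0.22 (SE, adjusted p = 0.00802, or -0.44 as the mean of its 2 probe sets), Ifit2 (-1.06) and Gbp2 (-0.68), both dim in PSC and ESC, the latter not called without PSC 1, PSC 2, ESC 1 or ESC 3.

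Among chromatin genes a few differences reached 2-fold. DNA methylation and imprint maintenance genes were 4 higher and 3 lower of 31 (22.6%; 2 higher with the mean of probe sets or without PSC 2). Ehmt2, a histone H3 lysine methyltransferase, was measured at 9.85, 9.79 and 9.87 in the PSC arrays and 11.44, 10.77 and 10.81 in the ESC arrays and fell by 1.17 ± 0.16 (SE, adjusted p = 0.00019), and Mbd3, of the NuRD complex, fell by 0.89 ± 0.17 (SE, adjusted p = 0.00272). Dppa3, which protects maternal methylation in the zygote and is also on the pluripotency list, had 8.51, 8.68 and 8.77 in the PSC arrays and 7.26, 7.76 and 7.20 in the ESC arrays and rose by 1.25 ± 0.19 (SE, adjusted p = 0.000423). Gadd45b, a stress protein linked to demethylation, rose by 1.01 ± 0.11 (SE, adjusted p = 4.88e-05, or 0.54 as the mean of its 3 probe sets). Dnmt1, Dnmt3a, Dnmt3b, Uhrf1, Tet2 and Trim28 were not called, with differences from -0.15 (Tet2) to 0.17 (Trim28). The probe sets of Dnmt3a disagreed: 2 of its 5 were called higher, and their mean was 0.32 (limma adjusted p = 0.0896), against 0.01 for the brightest. The means of the others' probe sets were not called either, between -0.28 (Dnmt3b) and -0.10 (Trim28). Polycomb and remodelling genes were 6 higher and 11 lower of 60 (28.3%, median -0.03, and 29.8% above the dim limit), none by 2-fold. The higher count was 3 with the mean of probe sets; the lower count was 7 after quantile normalization or without PSC 3, 6 without PSC 1 and 4 without PSC 2 or ESC 1. Smarcd3, a subunit of the BAF remodelling complex, fell by 0.91 ± 0.16 (SE, adjusted p = 0.00116), and Ezh2 was not called (-0.14). Of 8 histone genes 2 were higher and 1 lower (37.5%): H3f3b (0.63), H3f3a (0.57) and H1f10 (-0.57), all 3 calls lost without PSC 1 or without ESC 1. Of 4 Rhox homeobox genes 1 was higher and 1 lower (50.0%): Rhox13 fell by 0.80 ± 0.14 (SE, adjusted p = 0.00102) to a dim level, beside the rise of Rhox5.

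Of the markers of other lineages, only the neural list had far more genes called higher than lower. Neural progenitor and glial genes were 9 higher and 1 lower of 32 (31.2%, median 0.035; 5 higher with the mean of probe sets). The mean level of the list was 5.83 to 5.85 in PSC and 5.43 to 5.47 in ESC, a distance on which Olig1 (5.73) and Olig2 (3.53) weigh heavily, as the small median shows. Besides Olig1 and Olig2, Neurod1, a neurogenic transcription factor, was measured at 7.40, 7.23 and 7.35 in the PSC arrays and 5.80, 6.57 and 6.204 in the ESC arrays and rose by 1.13 ± 0.17 (SE, adjusted p = 0.000388). Zic2 (0.63) was called higher and Tubb3 (-0.88) lower, the latter not without PSC 1 or ESC 1. Primitive endoderm markers were 2 higher and 3 lower of 21 (23.8%), with 5 lower with array weights or without ESC 2 or ESC 3. The 2 higher were Amn, a membrane receptor subunit, which rose by 1.72 ± 0.15 (SE, adjusted p = 5.89e-06), and Sparc, described above. The 3 lower were Srgn (-0.89) and Dab2 (-0.65), both dim in PSC, and Col4a1 (-0.68). For Dab2 no other probe set was called. Gata4, Gata6 and Sox17 were dim in both groups and not called. Trophoblast markers were 3 higher and 4 lower of 27 (25.9%). The higher count was 1 without PSC 1 or PSC 3, 5 on the PSC and ESC arrays alone and 6 with array weights; the lower count was 2 with the mean of probe sets or without PSC 3, ESC 1 or ESC 3. Gata2 rose by 0.67 ± 0.12 (SE, adjusted p = 0.00138) and Krt8 fell by 0.68 ± 0.15 (SE, adjusted p = 0.00623); Cdx2 was not called (0.27). Of 25 streak and mesoderm markers, 2 were lower and none higher (8.00%), with 15 dim in both groups. Sp5, a Wnt target, fell by 0.70 ± 0.12 (SE, adjusted p = 0.00134), and the other, Cdx1 (-0.54), was not called without PSC 1 or ESC 3. Hox genes were mostly dim, with 24 of 33 dim in both groups and 1 call (Hoxd13, -0.52, itself dim and not called without PSC 3).

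Against all genes, large gene families lay near or below the background. Above the dim limit, 26.5% of Zfp, 35.3% of forkhead and Sox and 27.4% of solute carrier genes were called. For aldehyde, aldo-keto and P450 enzymes this share was 30.3% and for ion channels 23.7%, against 29.7% of all genes above the limit. Zinc finger Zfp genes were 34 higher and 38 lower of 329 (21.9%), the largest fall being that of Zfp42 (-2.73), a pluripotency gene; 23 to 25 were lower without PSC 1, PSC 2 or ESC 3 and 72 with array weights. Zfp869 was measured at 8.16, 7.92 and 8.51 in the PSC arrays and 6.37, 6.00 and 6.21 in the ESC arrays and rose by 2.00 ± 0.16 (SE, adjusted p = 3.4e-06), and Zfp936 fell by 1.48 ± 0.13 (SE, adjusted p = 6.76e-06). Forkhead and Sox genes were 7 higher and 7 lower of 56 (25.0%; 3 higher without PSC 1, PSC 2 or ESC 1). Foxd3, a forkhead factor of stem cells and neural crest, fell by 1.32 ± 0.19 (SE, adjusted p = 0.000346) and Foxp1 by 0.82 ± 0.17 (SE, adjusted p = 0.00424). For Sox11 the probe sets disagreed: the brightest rose by 2.21, 2 others were called lower, and the mean of 6 was not called (0.14). Solute carriers were 23 higher and 37 lower of 319 (18.8%; 13 or 14 higher without PSC 2 or PSC 1, and 41 with array weights), among them the creatine transporter Slc6a8, which fell by 1.17 ± 0.11 (SE, adjusted p = 7.97e-06), and Slc12a7, a potassium-chloride cotransporter, which rose by 0.93 ± 0.14 (SE, adjusted p = 0.000453). Aldehyde, aldo-keto and cytochrome P450 enzymes were 6 higher and 6 lower of 104 (11.5%), with 71 dim in both groups. Array weights gave 17 higher, and 3 were lower without PSC 1, PSC 2 or ESC 1. Aldh9a1 was at 9.67, 9.16 and 9.46 in the PSC arrays and 11.36, 10.60 and 11.54 in the ESC arrays and fell by 1.74 ± 0.21 (SE, adjusted p = 8.34e-05). Ion channels were 11 higher and 5 lower of 143 (11.2%; 9 lower with array weights), with 84 dim in both groups. Clcn5, an endosomal chloride exchanger, had 10.48, 10.66 and 10.13 in the PSC arrays and 9.38, 9.52 and 9.63 in the ESC arrays and rose by 0.91 ± 0.14 (SE, adjusted p = 0.000469, or 1.44 without _x_at and _s_at probe sets). Cacna2d2, a calcium channel subunit dim in ESC, rose by 1.19 ± 0.15 (SE, adjusted p = 0.000128, or 0.34 as the mean of its 3 probe sets), and Trpm1 (1.12) was not called with the mean of its 4 probe sets (0.31). Kcnk1, a potassium leak channel, fell by 0.82 ± 0.18 (SE, adjusted p = 0.00565) and the chloride channel Clcn2 by 0.93 ± 0.18 (SE, adjusted p = 0.00267).

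Position set 1 chromosome apart. On chromosome 12, 161 of 622 genes were called higher and 29 lower (25.9% and 4.66%), whereas on the other autosomes 6.33% to 12.2% of genes were higher. Over the 422 genes of chromosome 12 above the dim limit, the median distance from the ESC mean was 0.25, 0.23 and 0.24 in the PSC arrays and 0.00, -0.04 and 0.03 in the ESC arrays, so the 3 PSC arrays were alike. Galc, Zfp386, Egln3, Jag2, Npc2, Fos, Amn and Id2 lie there and were named for their calls. No list had more than 2 of its higher genes on it, but in short lists this was a large part. It held 2 of the 6 higher genes of the Notch list and 2 of 6 of the aldehyde, aldo-keto and P450 list. For forkhead and Sox genes this was 2 of 7, and for primitive endoderm markers 1 of 2. Of the 16 higher lysosome and autophagy genes 1 lay there, and of the 15 higher germ cell genes 0. Over all genes, 161 of the 1651 higher ones did. On the X chromosome 69 of 617 genes were higher and 55 lower (11.2% and 8.91%). Of 7 measured Y-linked genes, 3 were called lower in PSC and none higher, with differences down to -5.57. The groups thus differ in sex chromosomes as well.

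**Figure D5:**
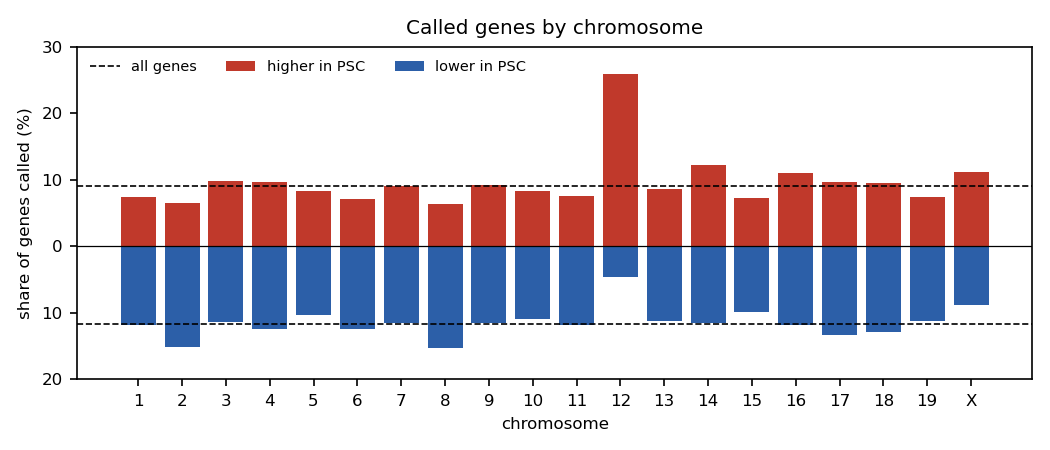
Share of measured genes called higher (red, up) and lower (blue, down) in PSC on each chromosome, with dashed lines at the shares over all genes (9.07% and 11.7%). Chromosome 12 stands apart with 25.9% higher and 4.66% lower; the other autosomes reach 12.2% higher at most.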

How the data were processed

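RNA was extracted with the RNeasy Midi kit and a DNase step, labelled with biotin by the One-Cycle protocol and hybridised to Affymetrix arrays, 1 sample an array, per the labels' protocols. The deposited values are log2 expression values that the authors made by RMA, per the submitters' processing notes, which corrects background, quantile-normalizes and summarises probes, so absolute shifts of the whole array are removed and dim differences are compressed. Depth is not defined for arrays, and the number of arrays limits the precision.

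Of 45101 probe sets, 34958 were annotated to 1 gene symbol, 932 to several and 9211 to none; 34754 matched RefSeq through their Entrez number and no symbol had to be updated. Each gene was represented by its brightest such probe set. limma 3.58.1 (R 4.3.3) was fitted to all 8 arrays with group (PSC, EB_PSC, ESC) as the only term, and the contrast PSC minus ESC was tested with moderated variances (residual degrees of freedom 5, prior 8.07) and Benjamini-Hochberg adjustment over 18194 genes; all adjusted p are from this fit, called below 0.05. The code was tested on simulated data. Figures were drawn with Matplotlib 3.10.9.

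The genes and the 49 gene lists were chosen with earlier results of these data known. Lists of imprinted, Y-linked, X inactivation and pluripotency genes were left out, and 45 were described by counts and medians. Genes were named by rule: the 20 largest rises and falls without overlapping arrays, up to 5 called members of each list in each direction, all called members of lists with 5 or fewer, and 24 fixed genes, of which T and Trp53 are not analysed here. Genes printed with their difference alone, and the motif, include some chosen after their values were seen. Lists with at least 1.3 times or at most 0.6 times the overall share of calls were described in depth. Promoter sequences are from RefSeq (GRCm38.p6). Alternatives were other scalings (quantile normalization again, and cyclic loess), leaving out genes dim in both groups, the mean of all probe sets, no _x_at or _s_at probe sets, the PSC and ESC arrays alone, a trended robust prior, array weights, a 2-fold threshold, the replicate number as a block and each PSC and ESC array left out.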

Additional observations from a re-analysis of the deposited data

How the results depend on the processing

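Against 1651 higher and 2131 lower genes, array weights gave 2537 and 3156, and a 2-fold threshold 268 and 282, by its construction. Leaving out 1 array gave 1119 to 1715 higher and 1330 to 2427 lower genes, fewest lower without PSC 1. A repeated quantile normalization gave 2026 and 1870, and cyclic loess 1974 and 1933, so the balance of directions turned. Replicate numbers did not pair the samples (correlations of same-numbered deviations of -0.25, -0.07 and -0.04); the replicate block gave 1547 higher and 2017 lower genes. Other causes of these changes were not tested.

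Of the 360 called named genes, 350 kept their call after quantile normalization, 350 after loess, 353 with the block and 302 to 342 without 1 array. With the mean of all probe sets 296 kept their call, 59 lost it and 5 changed sign, namely Dnajc3 (-0.00), Mbd4 (-0.03), Ndufa12 (-0.01), Smarce1 (-0.11) and Sulf2 (-0.02). Without _x_at and _s_at probe sets 325 of 354 kept it, 20 lost it and 9 changed sign: Akr7a5 (-0.06), Cnp (-0.06), Dtx2 (-0.39), Fen1 (-0.45), Gstm3 (-0.14), Kdm2b (-0.39), Mrpl28 (-0.09), Sulf2 (-0.74) and Wars (-0.06). Of these, Fen1 (adjusted p = 0.0158) and Sulf2 (adjusted p = 0.00496) were then called lower by limma. Signal over background limits the 6302 genes that lay below the dim limit in both groups.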

Other observations

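Genes called at 2-fold or more that lie next to each other on a chromosome and moved the same way were counted after the data were seen. Of the 547 such genes with a position among 18146 placed genes, 60 formed 30 pairs, 14 higher and 16 lower, with no run longer than 2. Spata5l1 and AA467197 rose by 3.05 and 2.71. Padi6 and Padi4, peptidylarginine deiminases, rose by 1.24 and 1.39, and S100a1 and S100a13 by 1.05 and 1.13. Stard3nl and Epdr1 fell by 2.23 and 1.78, Tmprss13 and Fxyd6 by 1.80 and 1.93, and Mzt1 and Bora, a mitotic kinase activator, by 1.10 and 1.60. Chromosome 12 held 5 of the pairs, among them Jag2 and Nudt14. No share expected without clustering was computed, so the number of pairs is a description.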
